A study of Arabidopsis thaliana with 15 samples.

Results

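Closed flower buds of the Arabidopsis thaliana triple mutant elf6-3ref6Cjmj13G were compared with buds of wild-type Col0 plants by RNA sequencing. The comparison used 6 of the 15 libraries of the series, 3 for each genotype, chosen by their labels, and every gene of the deposited table. The table held 33323 genes, of which 22411 had enough reads to be tested. All plants were 5 weeks old, were untreated and had grown in a greenhouse in long days at 22 °C by day and 20 °C at night. The triple mutant carried the alleles elf6-3, ref6C and jmj13G, and the wild type carried none of them. The double mutant elf6-3ref6C, also with 3 libraries, served to show what distinguished the triple mutant. The labels state neither the lesion of each allele nor the number of plants per library, and they do not say that replicates came from separate plants. The p-values therefore measure the spread between libraries, which may be technical.

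Histone H3 trimethylated at lysine 27 (H3K27me3) is deposited by Polycomb repressive complex 2 and is associated with silent developmental genes. REF6, ELF6 and JMJ13 are Jumonji C domain proteins that remove this mark in Arabidopsis. In flowers, the mark is known for its part in keeping organ identity, meristem and flowering time genes silent where they are not needed.

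The 6 libraries held between 27106757 and 34140165 counts. Values are given as CPM, each gene's share of its library's counts, scaled by the trimmed mean of M values (TMM). The floral organ identity genes AP3, PI, AG and SEP3 lay at mean values of 171, 264, 105 and 242 CPM in wild type, so the labelled tissue carried its defining markers. Library 3 of ref6C, a genotype in neither compared group, stood apart with 29547 genes detected against 25055 to 25712 in the other libraries. Reads from the 4 nuclear rRNA loci summed to between 1421 and 1717 CPM in wild type and between 3547 and 3874 CPM in the triple mutant. In the double mutant the sum lay between 5201 and 7600 CPM. The sum includes AT2G01020 and AT3G41979, whose values were identical in every library. The part of rRNA reads in the results was not tested.

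Transcripts of all 3 targeted demethylase genes fell in the triple mutant without disappearing. ELF6 stood at 61.8, 61.6 and 60.5 CPM in the wild-type libraries and at 8.54, 9.76 and 7.71 CPM in the triple mutant. JMJ13 stood at 24.4, 25.4 and 24.6 CPM in wild type and at 9.49, 8.73 and 8.90 CPM in the triple mutant. REF6 stood at 68.4, 71.7 and 68.2 CPM in wild type and at 37.3, 36.9 and 34.2 CPM in the triple mutant. The groups did not overlap for any of the 3 genes. The log2 fold changes were -2.83 ± 0.05 (SE) for ELF6, -1.45 ± 0.05 for JMJ13 and -0.94 ± 0.04 for REF6, with Benjamini-Hochberg adjusted p of 3.5e-25, 3.0e-19 and 2.1e-17 in edgeR's quasi-likelihood test. Per length, the wild-type levels were 16.3 ± 0.37 (SD, n = 3) FPKM for REF6, 14.7 ± 0.091 for ELF6 and 10.8 ± 0.19 for JMJ13. ELF6 and JMJ13 each overlap an antisense gene, and no source used here states the strand setting of the counting. Among the 15 other Jumonji C genes tested, 4 rose, 2 fell and 9 were not called, with a median log2 fold change of 0.04. JMJ22 had the largest change, from 25.3, 22.5 and 22.7 CPM to 41.5, 37.5 and 43.0 CPM.

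**Figure D1:**
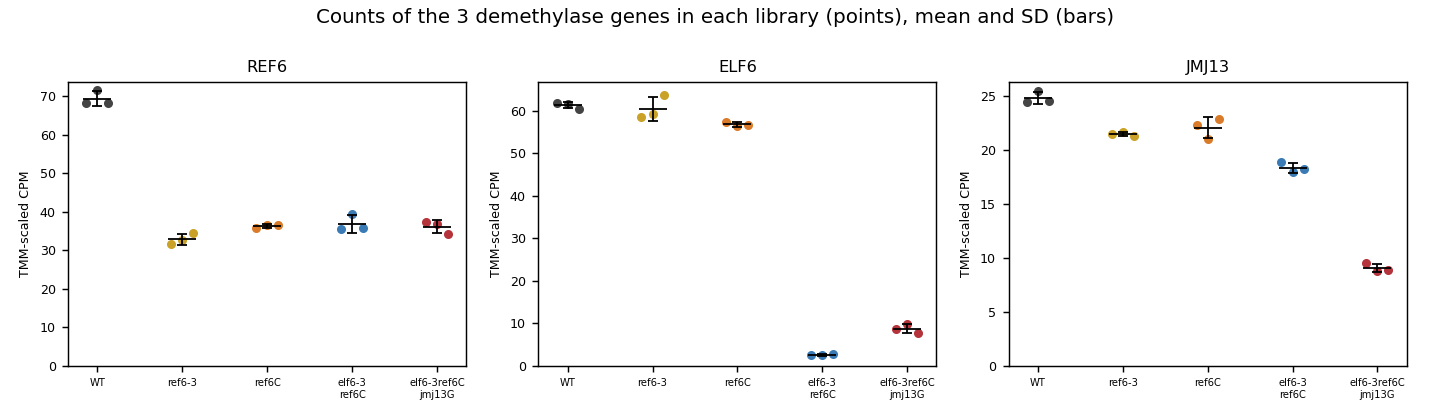
TMM-scaled CPM (y axis, from 0) of REF6, ELF6 and JMJ13 in the 5 genotypes (x axis); points are libraries and bars the mean and SD of 3 libraries. ELF6 was low in the double and triple mutants, and JMJ13 was lowest in the triple mutant, at 8.73 to 9.49 CPM.

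Most of the tested transcriptome differed between the triple mutant and wild type, and the larger changes were mostly falls. At an adjusted p below 0.05, 14887 genes were called (66.4%). Of the genes tested, 7167 were higher (32%) and 7720 were lower (34.4%), but 80.3% of the called genes changed by less than 2-fold. At 2-fold or more, 673 genes rose (3%) and 2260 fell (10.1%). When a change beyond 2-fold was itself tested with glmTreat, 371 were higher and 1254 lower. At 4-fold or more the counts were 235 and 514, and at 16-fold or more 63 and 126. The median log2 fold change of all tested genes was -0.01, and the libraries of the groups did not overlap for 68.2% of them. The biological coefficient of variation was 2.51%. The balance of calls of any size was not stable, with 7543 higher and 7513 lower when library 3 of ref6C was left out.

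**Figure D2:**
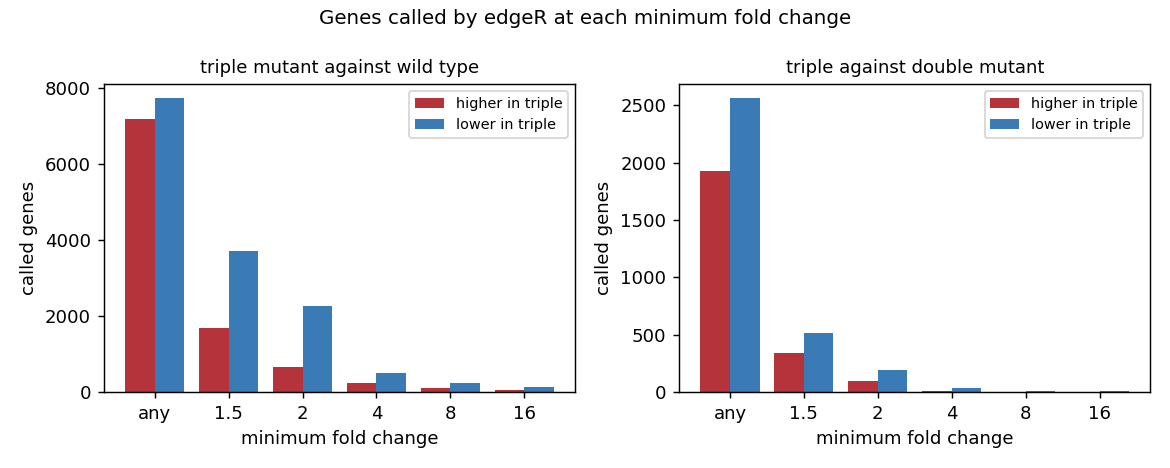
Number of genes called by edgeR (y axis) at each minimum fold change (x axis) for the triple mutant against wild type (left) and against the double mutant (right). From 2-fold upward, lower genes outnumbered higher genes in both panels (2260 against 673, and 197 against 94).

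The 2-fold falls were frequent among weakly and moderately expressed genes. Of the genes between 1 and 10 CPM in wild type, 21.5% fell 2-fold, against 3.83% of those between 10 and 100 CPM and 2.84% of those over 100 CPM. Transposable element genes moved in both directions: of 296 tested, 41 rose (13.9%) and 62 fell (20.9%) 2-fold, against 2.69% and 9.94% of protein-coding genes. This comparison was not matched for expression level. Of all tested genes between 0.1 and 1 CPM in wild type, 14.4% rose and 21.7% fell 2-fold, shares close to those of the transposable element genes. The 5 nuclear chromosomes were alike, with between 9.82% and 10.7% of their tested genes falling 2-fold.

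Promoters were searched for 3 motifs: the REF6 motif, a SOG1 motif and the G-box. REF6 is known to recognise short DNA motifs through its zinc fingers, and the letters searched were CTCTGCTC, CTCTGCTT, CTCTGTTC and CTCTGTTT on both strands. The window ran from 250 bases before to 50 bases after the annotated start of each gene, 300 bases in all, in the RefSeq annotation of TAIR10.1. A motif lay in 7.88% of the 22317 promoters of tested genes. It lay in 7.75% of the promoters of genes that rose 2-fold (exact 95% interval 5.84 to 10.04), in 6.84% of those that rose 4-fold (3.96 to 10.9), in 9.60% of those that fell 2-fold (8.41 to 10.9) and in 12.2% of those that fell 4-fold (9.45 to 15.3). Among the 477 named and listed genes with a promoter, 32 had a match (6.71%) and 445 had none. Genes with no match included MYB21, MYB24, AP3, FT, ELF6, ASN1, SBT4.13, PR2 and JAZ9, and the list shares were 2 of 30 mature pollen genes, 2 of 26 jasmonate genes, 1 of 15 salicylate and defence genes and 2 of 18 floral MADS-box genes. The G-box CACGTG, bound by bHLH and bZIP factors and searched after values had been seen, lay in 8.44% of promoters of tested genes, in 8.64% of those that rose 2-fold, in 7.64% of those that fell 2-fold and in 3 of 8 JAZ promoters. These shares are a description and carry no test, and a match does not show that REF6 binds there. The promoters of 3 genes with a match are shown to make the motif visible, and they were picked after values and matches had been seen, so they do not stand for the genes that changed: MS2 (chr3:3813981-3814280, plus strand), JAZ7 (chr2:14572780-14573079, plus strand) and NAC085 (chr5:4672909-4673208, minus strand). Capitals mark the motif or its reverse complement.
MS2: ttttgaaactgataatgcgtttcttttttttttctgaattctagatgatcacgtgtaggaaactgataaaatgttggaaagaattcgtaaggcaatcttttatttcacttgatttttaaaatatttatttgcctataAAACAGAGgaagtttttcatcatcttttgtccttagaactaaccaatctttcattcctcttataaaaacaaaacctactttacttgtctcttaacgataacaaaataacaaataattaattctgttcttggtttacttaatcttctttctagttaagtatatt
JAZ7: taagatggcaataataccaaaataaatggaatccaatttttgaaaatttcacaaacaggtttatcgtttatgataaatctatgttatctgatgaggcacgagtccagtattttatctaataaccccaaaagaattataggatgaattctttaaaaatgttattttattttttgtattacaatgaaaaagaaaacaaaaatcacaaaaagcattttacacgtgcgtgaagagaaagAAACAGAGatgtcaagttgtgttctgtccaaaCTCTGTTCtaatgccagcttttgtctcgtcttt
NAC085: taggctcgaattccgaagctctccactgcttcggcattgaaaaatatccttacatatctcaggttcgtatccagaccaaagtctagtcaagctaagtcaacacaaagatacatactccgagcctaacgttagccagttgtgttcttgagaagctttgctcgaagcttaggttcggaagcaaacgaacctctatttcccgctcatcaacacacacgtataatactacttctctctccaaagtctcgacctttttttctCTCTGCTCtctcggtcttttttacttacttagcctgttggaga

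The 8 largest rises among moderately expressed genes began with PR2. PR2, which encodes a beta-1,3-glucanase induced by salicylate, stood at 0.674, 0.614 and 0.327 CPM in wild type and at 14.96, 14.3 and 14.3 CPM in the triple mutant. Its log2 fold change was 4.72 ± 0.14 (edgeR adjusted p = 6.1e-21). NAC044, which encodes a transcription factor of the DNA damage response, stood at 1.05, 0.935 and 0.981 CPM in wild type and at 17.1, 18.9 and 17.6 CPM in the triple mutant. No overlap between the libraries of the groups was a condition for being named here, and 68.2% of all tested genes met it. The NAC044 log2 fold change was 4.17 ± 0.10 (edgeR adjusted p = 1.4e-22). HIS1-3, a linker histone gene known to respond to drought, rose from 1.96, 2.25 and 2.72 CPM to 21.7, 22.9 and 24.0 CPM, a log2 fold change of 3.31 ± 0.09 (edgeR adjusted p = 4.2e-22). AT2G16586, a protein-coding gene for which the reference gives no description, rose from 15.9, 15.7 and 15.8 CPM to 267, 256 and 213 CPM. The remaining strong rises were AT2G05914, an RNA overlapping another gene in antisense (4.02), the threonyl-tRNA synthetase gene AT1G17960 (3.56), the small nucleolar RNA U3D (3.17) and AT5G51440, an HSP20-like chaperone gene (2.89), all as log2 fold changes. Of 13 snRNA loci in the deposited data, 6 were tested and all 6 were called higher, against 32% of all tested genes. All 4 rRNA loci were called higher as well. U2.6 and U2.7 had 8 and 9 wild-type counts over 3 libraries, against 29 and 45 in the triple mutant. Loci with so few wild-type counts could pass the filter only through mutant libraries, so their calls carry little weight. The rRNA loci AT2G01020 and AT3G41979 had identical values in every library, so they do not count as separate observations. Of the 19 tested snoRNA loci, the class of U3D, only 5 were called higher and 0 lower (median 0.17). U3D had means of 2.15 CPM in wild type, 30.4 CPM in the double mutant and 18.9 CPM in the triple mutant.

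The DNA damage factor SOG1 is known to bind CTTNNNNNNNAAG, a motif that reads the same on both strands. Among promoters of tested genes 11.5% contained it, against 11.9% of those that rose 2-fold and 13.8% of those that fell 2-fold. The NAC044 promoter (chr3:228825-229124, plus strand) held 1 match, in capitals. The related gene NAC085 had no match. This motif was chosen after the rise of NAC044 had been seen, and the promoter was picked for its match.
NAC044: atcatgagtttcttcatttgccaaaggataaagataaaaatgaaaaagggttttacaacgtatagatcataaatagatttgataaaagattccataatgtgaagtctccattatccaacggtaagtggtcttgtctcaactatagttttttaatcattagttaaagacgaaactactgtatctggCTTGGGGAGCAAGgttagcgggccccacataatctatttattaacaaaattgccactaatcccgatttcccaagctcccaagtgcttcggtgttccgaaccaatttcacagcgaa

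Among genes whose average log2 CPM reached 1, the 8 largest falls spanned log2 fold changes from -5.05 to -3.35. ASN1, which encodes the glutamine-dependent asparagine synthetase, fell from 113, 117 and 113 CPM to 8.51, 8.03 and 8.56 CPM, a log2 fold change of -3.77 ± 0.04 (edgeR adjusted p = 2.2e-29). SBT4.13, a subtilisin-like protease gene, fell from 17.8, 18.4 and 16.1 CPM to 0.687, 0.404 and 0.468 CPM, a log2 fold change of -5.05 ± 0.17 (edgeR adjusted p = 6.8e-20). These falls, like the rises, were picked among genes whose libraries did not overlap between the groups. FDM2, a member of a gene family acting in RNA-directed DNA methylation, fell by 3.59 on the log2 scale. MIOX1, which encodes a myo-inositol oxygenase, fell by 3.70, and the pectin lyase-like gene PGA3 fell by 3.55. XRCC4, whose product partners DNA ligase IV in end joining, fell by 3.35, from 18.2, 17.4 and 19.6 CPM to 1.90, 2.05 and 1.47 CPM. It overlaps AT3G23110 on the other strand, and the strand setting of the counting is not known. The undescribed genes AT5G61120 and AT2G27402 fell by 4.46 and 3.40.

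Some genes crossed from near silence to expression or the reverse. A total of 12 genes lay below 0.1 CPM in every wild-type library and at 1 CPM or more in every triple-mutant library. The opposite pattern was shown by 47 genes. All of them were called, but these limits nearly fix that outcome, so the calls add no evidence. The transposable element gene AT5G32566 had no count in any wild-type library and 4.84, 3.70 and 4.59 CPM in the triple mutant, at least 134-fold higher against a floor of 3 counts over the group. AT4G12735, a protein-coding gene without a description, also had no wild-type count and was at least 110-fold higher. The transposable element gene AT4G07850 (0, 0.0292 and 0.0726 CPM in wild type) reached 6.58, 8.33 and 6.62 CPM. AT2G03130, whose product belongs to the ribosomal protein L12 and ClpS family, rose from 0.0674, 0.0877 and 0.0726 CPM to 5.83, 5.87 and 5.56 CPM. NAC085, closely related to NAC044, was also in this class (1.15, 1.14 and 1.41 CPM in the triple mutant). In the opposite class, the pectate lyase gene AT5G15110 fell from 7.42, 7.75 and 6.25 CPM to 0.0982, 0.0734 and 0.0312 CPM. CWINV2, which encodes a cell wall invertase, fell from 5.46, 5.82 and 5.01 CPM to 0.0655, 0 and 0 CPM; it overlaps another gene. The pectin methylesterase inhibitor family genes AT5G27870 and APPB1 fell from between 4.07 and 4.94 CPM to a single count each over the 3 mutant libraries.

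The gene lists by role are read against all tested genes, of which 32% were called higher and 34.4% lower, with a median of -0.01. The genes of the Polycomb complexes that oppose the demethylases moved in both directions: of 18 tested, 9 rose, 7 fell and 2 were not called, with a median log2 fold change of 0.07. VIN3, which acts with Polycomb repressive complex 2 in vernalization, fell from 7.12, 7.19 and 7.41 CPM to 3.44, 3.48 and 3.97 CPM. BMI1C, BMI1A and VRN1 fell by 1.07, 0.53 and 0.43 on the log2 scale. The complex 1 gene RING1B rose from 9.54, 8.62 and 10.06 CPM to 15.8, 14.5 and 14.6 CPM. The core subunit gene MSI1 rose by 0.31, and the methyltransferase gene CLF rose by 0.16.

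**Figure D3:**
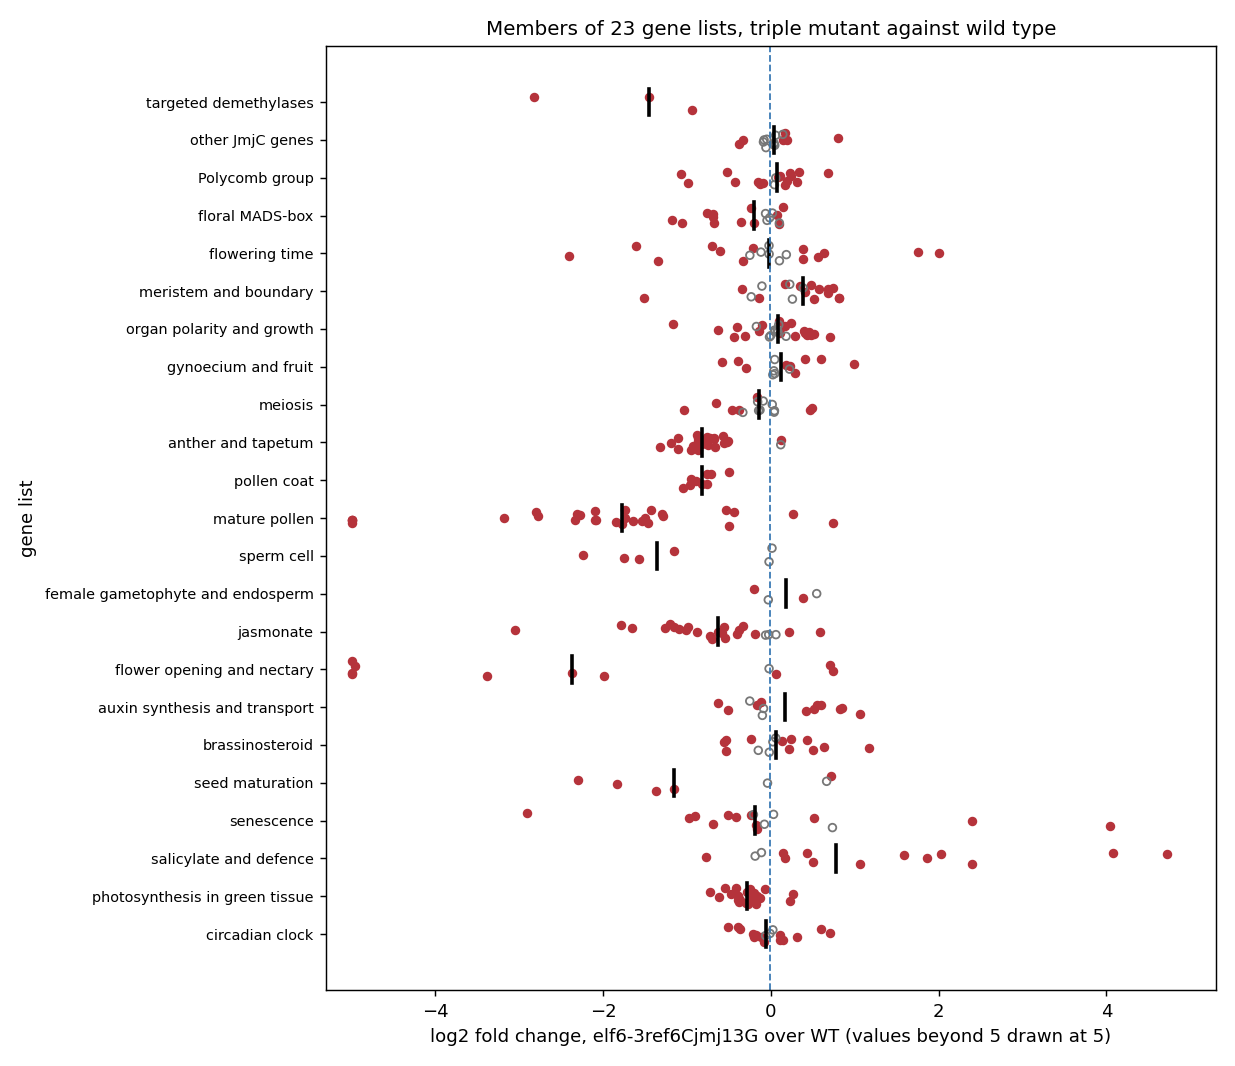
Fitted log2 fold change (x axis) of each tested member of 23 gene lists (y axis) in the triple mutant against wild type. Filled points passed the edgeR test, open points did not, black bars are list medians and the dashed line is the median of all tested genes. Mature pollen (median -1.78) and flower opening genes (median -2.37) lay left of the dashed line, and salicylate and defence genes (median 0.78) lay right of it.

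Among floral MADS-box genes, the petal and stamen gene AP3 fell the most. Of 17 tested, 9 fell, 3 rose and 5 were not called, and the median log2 fold change was -0.20. AP3, which with PI specifies petals and stamens, stood at 172, 169 and 171 CPM in wild type and at 75.0, 76.9 and 74.3 CPM in the triple mutant. Its log2 fold change was -1.18 ± 0.03 (edgeR adjusted p = 5.6e-23). PI fell from 267, 254 and 271 CPM to 164, 164 and 163 CPM, and SEP2, an organ identity cofactor, fell from 181, 184 and 184 CPM to 110, 114 and 115 CPM. Groups did not overlap for any of these genes. AG, which specifies stamens and carpels, fell by 0.24 on the log2 scale, and SEP3 fell by 0.20. SEP1 was not called, at 93.3, 91.2 and 94.7 CPM in wild type and 89.3, 96.4 and 96.9 CPM in the triple mutant. AP1, which specifies sepals, rose by 0.08, and the ovule identity gene STK rose by 0.14.

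Flowering time genes moved in both directions: of 19 tested, 7 fell, 6 rose and 6 were not called. Of the FLC clade of flowering repressors, all tested members except MAF5 fell. FLM fell from 68.1, 64.3 and 66.7 CPM to 22.0, 21.4 and 22.0 CPM (log2 fold change -1.60 ± 0.04, edgeR adjusted p = 4.2e-23). FLC fell from 6.95, 6.64 and 6.61 CPM to 2.72, 2.82 and 2.44 CPM. MAF4, MAF3 and MAF2 fell by 2.41, 0.71 and 0.61 on the log2 scale, while MAF5 rose by 0.38. FT, which encodes the mobile flowering signal, rose from 0.674, 0.819 and 0.509 CPM to 2.78, 2.90 and 2.50 CPM (2.00 ± 0.20, edgeR adjusted p = 2.0e-09). TFL1, which keeps the inflorescence meristem indeterminate, rose from 1.55, 1.61 and 1.82 CPM to 5.66, 5.76 and 5.37 CPM. LFY, SOC1 and AGL24, which promote floral transition, rose by 0.64, 0.38 and 0.56.

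Of 19 tested meristem and organ boundary genes, 11 rose, against 32% of all tested genes, 3 fell and 5 were not called, with a median log2 fold change of 0.38. The class I KNOX genes, which keep meristem cells undifferentiated, rose together. KNAT1 rose from 51.8, 56.7 and 49.5 CPM to 84.4, 88.8 and 82.1 CPM, KNAT2 rose by 0.81 and STM by 0.48 on the log2 scale. The boundary gene CUC3 rose by 0.81, whereas its relative CUC1 fell from 3.00, 3.22 and 3.16 CPM to 0.851, 1.28 and 1.16 CPM. WUS, which maintains the stem cells, fell by 0.35. Of 28 organ polarity and growth genes, 12 rose and 7 fell (median 0.09). BPE, a gene restricting petal size, fell from 42.1, 44.0 and 43.2 CPM to 19.6, 18.9 and 19.2 CPM. The growth gene ANT rose by 0.41, and AS1, which represses KNOX genes, rose by 0.51. Of 14 gynoecium and fruit genes 6 rose and 3 fell (median 0.12), but 1 fell without replicate 3 of wild type, without replicate 1 or 3 of the triple mutant, or with DESeq2 or no filter. ALC, which is needed for fruit opening, rose from 48.4, 47.9 and 48.3 CPM to 94.8, 95.9 and 97.4 CPM (0.995 ± 0.03, edgeR adjusted p = 2.5e-20).

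Stamen and pollen genes fell broadly. In bulk tissue, fewer cells of a type and less RNA per cell cannot be told apart. The 26 anther and tapetum genes summed to between 4474 and 4655 CPM in wild type and between 2839 and 2850 CPM in the triple mutant. Of them, 24 fell, EMS1 rose by 0.12 and TPD1 was not called. The median log2 fold change was -0.82. MS2, a sporopollenin pathway reductase gene whose promoter is printed above, fell from 380, 404 and 400 CPM to 183, 182 and 183 CPM. CALS5, which encodes the callose synthase of the pollen wall, fell by 1.33, and MS1 and DYT1, tapetum transcription factor genes, fell by 1.19 and 1.11 on the log2 scale. All 9 pollen coat genes fell, with a median of -0.82, and EXL4, a lipase gene, fell by 0.82. Of 15 meiotic genes 5 were lower, a share close to the 34.4% of all tested genes, 2 were higher and 8 were not called (median -0.15). The cohesin gene SYN1 fell from 4.65, 4.97 and 4.94 CPM to 2.19, 2.49 and 2.44 CPM, and the recombinase gene DMC1 fell by 0.38.

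Of the mature pollen genes, nearly all fell. Their 30 members summed to between 906 and 955 CPM in wild type and between 309 and 319 CPM in the triple mutant. Of 29 tested, 27 fell, 24 of them at least 2-fold, and 2 rose, and the median log2 fold change was -1.78. VGD1, a pectin methylesterase gene acting in pollen tube growth, fell from 316, 318 and 312 CPM to 102, 101 and 99.2 CPM (-1.64 ± 0.03, edgeR adjusted p = 7.6e-26). VGDH1, its neighbour in the same family, fell from 41.1, 44.4 and 37.4 CPM to 5.99, 5.61 and 6.06 CPM. The hexose transporter gene STP9 fell by 1.46 and the pollen calcium pump gene ACA9 by 1.74. RBOHH, an NADPH oxidase gene of the pollen tube, had 1.21, 1.403 and 0.981 CPM in wild type and no count in the triple mutant, at least 36.4-fold lower against a floor of 3 counts over the group. The pollen MADS-box genes AGL65 and AGL29 were the 2 members that rose, by 0.26 and 0.75. Of the mature pollen genes, 1 was called higher without replicate 2 or 3 of wild type and 0 without replicate 2 of the triple mutant. Sperm cell genes followed in part: DUO1, MGH3, DAZ1 and DAZ2 fell (DAZ1 was not called without replicate 1 of wild type), while GEX1 and HAP2 were not called, at log2 fold changes of 0.01 and -0.02.

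Jasmonate and flower opening genes fell as well. Jasmonate is needed for stamen maturation and flower opening, and JAZ proteins repress its response. Of 25 jasmonate genes tested, 20 fell, 2 rose and 3 were not called, with a median of -0.64. JAZ9 fell from 265, 276 and 271 CPM to 112, 117 and 110 CPM (-1.26 ± 0.03, edgeR adjusted p = 2.7e-23). JAZ7, whose promoter is printed above, fell from 1.48, 1.403 and 1.67 CPM to 0.164, 0.257 and 0.125 CPM. The synthesis genes LOX3 and OPR3 fell by 1.09 and 0.55 on the log2 scale, whereas the receptor gene COI1 and the transcription factor genes MYC2 and MYC3 were not called; the related MYC4 fell by 1.01. VSP1 fell by 0.70 and its tandem neighbour VSP2 rose by 0.58; reads shared between such similar genes could have been split by the counting.

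MYB21 and MYB24 encode the jasmonate-responsive factors that drive stamen elongation and petal opening. MYB21 stood at 11.5, 11.5 and 12.5 CPM in wild type and at 0.196, 0.293 and 0.250 CPM in the triple mutant, a log2 fold change of -5.57 ± 0.21 (edgeR adjusted p = 1.3e-18). MYB24 stood at 5.46, 5.23 and 5.81 CPM in wild type and at 0.0327, 0.183 and 0.125 CPM in the triple mutant, a log2 fold change of -5.57 ± 0.28 (edgeR adjusted p = 5.7e-16). Both genes overlap antisense genes, and for MYB21 the partner AT3G27809 fell too, by 4.76. Of the 11 tested genes of the flower opening and nectary list, 7 fell, 3 rose and 1 was not called, with a median of -2.37. CWINV4, a cell wall invertase gene of nectaries, fell from 51.3, 54.3 and 52.8 CPM to 13.7, 11.7 and 14.4 CPM. The terpene synthase gene TPS21 fell from 4.32, 3.92 and 4.03 CPM to 0.524, 0.183 and 0.437 CPM, but AT5G44630, another terpene synthase gene, rose from 60.03, 62.5 and 64.0 CPM to 101, 104 and 97.9 CPM. ARF6, an auxin response factor gene upstream of this programme, was not called, and its partner ARF8 rose by 0.06.

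Most salicylate and defence genes rose, whereas auxin and brassinosteroid genes moved in both directions, as all tested genes did (32% higher, 34.4% lower). Of 14 auxin genes 7 rose and 4 fell (median 0.16), and 2 fell without replicate 2 of wild type or replicate 1 of the triple mutant: the synthesis gene TAA1 rose from 36.9, 36.5 and 34.3 CPM to 71.0, 78.3 and 75.4 CPM. Of 15 brassinosteroid genes 7 rose and 4 fell (median 0.06). Of 14 salicylate and defence genes 11 rose, 7 of them at least 2-fold, and 1 fell, with a median of 0.78. Besides PR2, SARD1, which controls salicylate synthesis, rose from 2.43, 1.81 and 2.40 CPM to 8.64, 9.28 and 8.93 CPM. WRKY33 rose by 1.59 on the log2 scale and CBP60g by 2.40. PBS3, an enzyme gene of salicylate synthesis, fell by 0.78, and ICS1, which encodes the first enzyme of that route, was not called (-0.19). In the senescence list, 9 of 16 fell and 3 rose, with SEN1 falling from 8.33, 8.21 and 8.90 CPM to 1.08, 1.06 and 1.22 CPM. The members that rose 2-fold were weakly expressed: NAC3 rose from 0.169, 0.234 and 0.145 CPM to 0.982, 0.807 and 1.19 CPM, and SAG12 had no wild-type count and 0.0327, 0.0734 and 0.0937 CPM in the triple mutant. Of 7 seed maturation genes tested 4 fell, among them CYP707A3 and CYP707A1, which inactivate abscisic acid, by 2.30 and 1.38. Of 23 photosynthesis genes 21 fell and 2 rose, none by 2-fold, with a median of -0.28. Of 17 clock genes 6 were higher and 8 lower, against 32% and 34.4% of all tested genes (median -0.06), and of 4 tested female gametophyte and endosperm genes 1 rose and 1 fell (median 0.18).

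**Figure D4:**
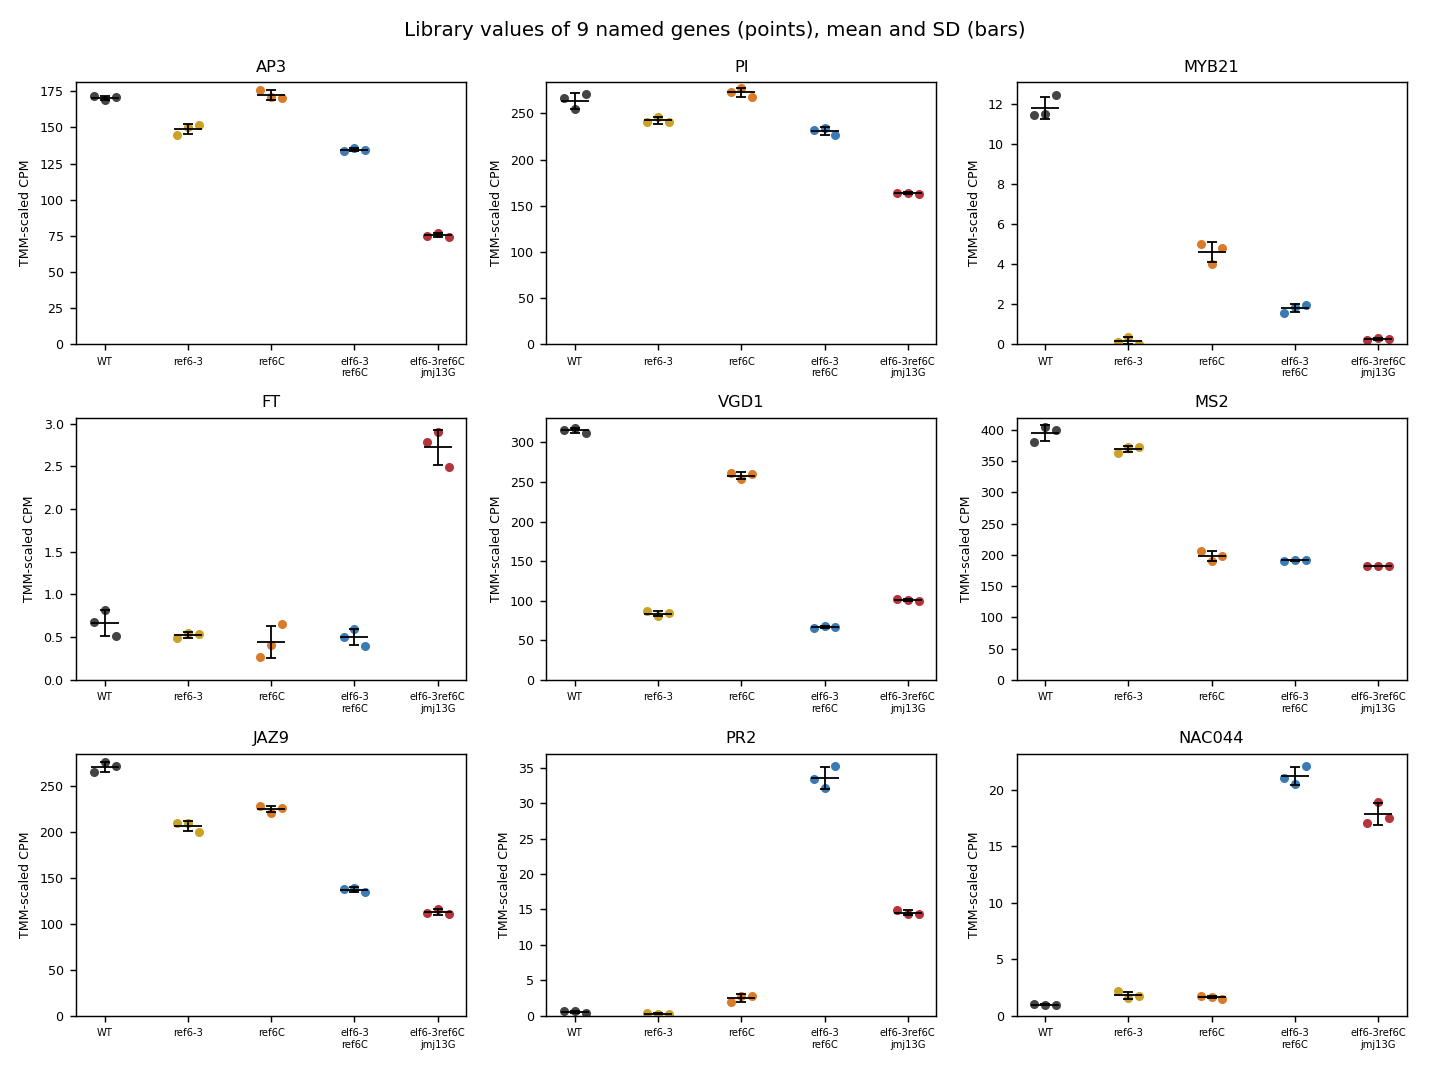
TMM-scaled CPM (y axes, from 0) of 9 named genes in the 5 genotypes (x axes); points are libraries and bars the mean and SD of 3 libraries. AP3 and PI were lowest in the triple mutant, FT was highest there (2.50 to 2.90 CPM), and PR2 and NAC044 were also high in the double mutant.

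The triple mutant was then compared directly with elf6-3ref6C, which differs from it by the jmj13G allele in the labels. Calls were fewer: 4483 genes were called (20%), 1923 of them higher (8.58%) and 2560 lower (11.4%), and at a minimum of 2-fold 94 rose (0.419%) and 197 fell (0.879%). When a change beyond 2-fold was itself tested, 9 were higher and 22 lower. The libraries of the groups did not overlap for 34.7% of the tested genes. AP3 was lower in the triple mutant than in the double mutant by 0.84 on the log2 scale (edgeR adjusted p = 3.7e-18), where the double mutant had a mean of 135 CPM. PI was lower by 0.50 (edgeR adjusted p = 1.1e-13) and SEP2 by 0.56 (edgeR adjusted p = 1.3e-14). FT was higher than in the double mutant by 2.45 (edgeR adjusted p = 2.5e-09), whose mean of 0.501 CPM lay near the wild-type mean of 0.667 CPM. MYB21 and MYB24 were lower by 2.85 and 2.55. The transposable element gene AT5G32566 was higher by 4.34, against a double-mutant mean of 0.225 CPM.

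Pollen coat genes, VGD1, PR2 and ELF6 lay closer to wild type in the triple than in the double mutant. All 9 pollen coat genes were higher in the triple mutant than in the double mutant, with a median of 0.40, and 8 of 29 mature pollen genes were higher and 1 lower. VGD1 had a mean of 66.8 CPM in the double mutant and was higher in the triple mutant by 0.59. Of 14 salicylate and defence genes, 10 were lower in the triple mutant and none higher: PR2 had a mean of 33.6 CPM in the double mutant and was lower by 1.21 in the triple mutant. ELF6 was higher than in the double mutant by 1.76, at 8.54, 9.76 and 7.71 CPM against a mean of 2.53 ± 0.14 (SD, n = 3). In contrast, GPT2, a plastid glucose-phosphate translocator gene, was at 41.9, 40.5 and 38.3 CPM in the triple mutant, against means of 12.2 CPM in the double mutant and 10.96 CPM in wild type. HIS1-3 was higher than in the double mutant by 1.095, and ALC by 0.60. Photosynthesis genes were slightly lower than in the double mutant, with 17 of 23 called lower and none higher (median -0.13).

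**Figure D5:**
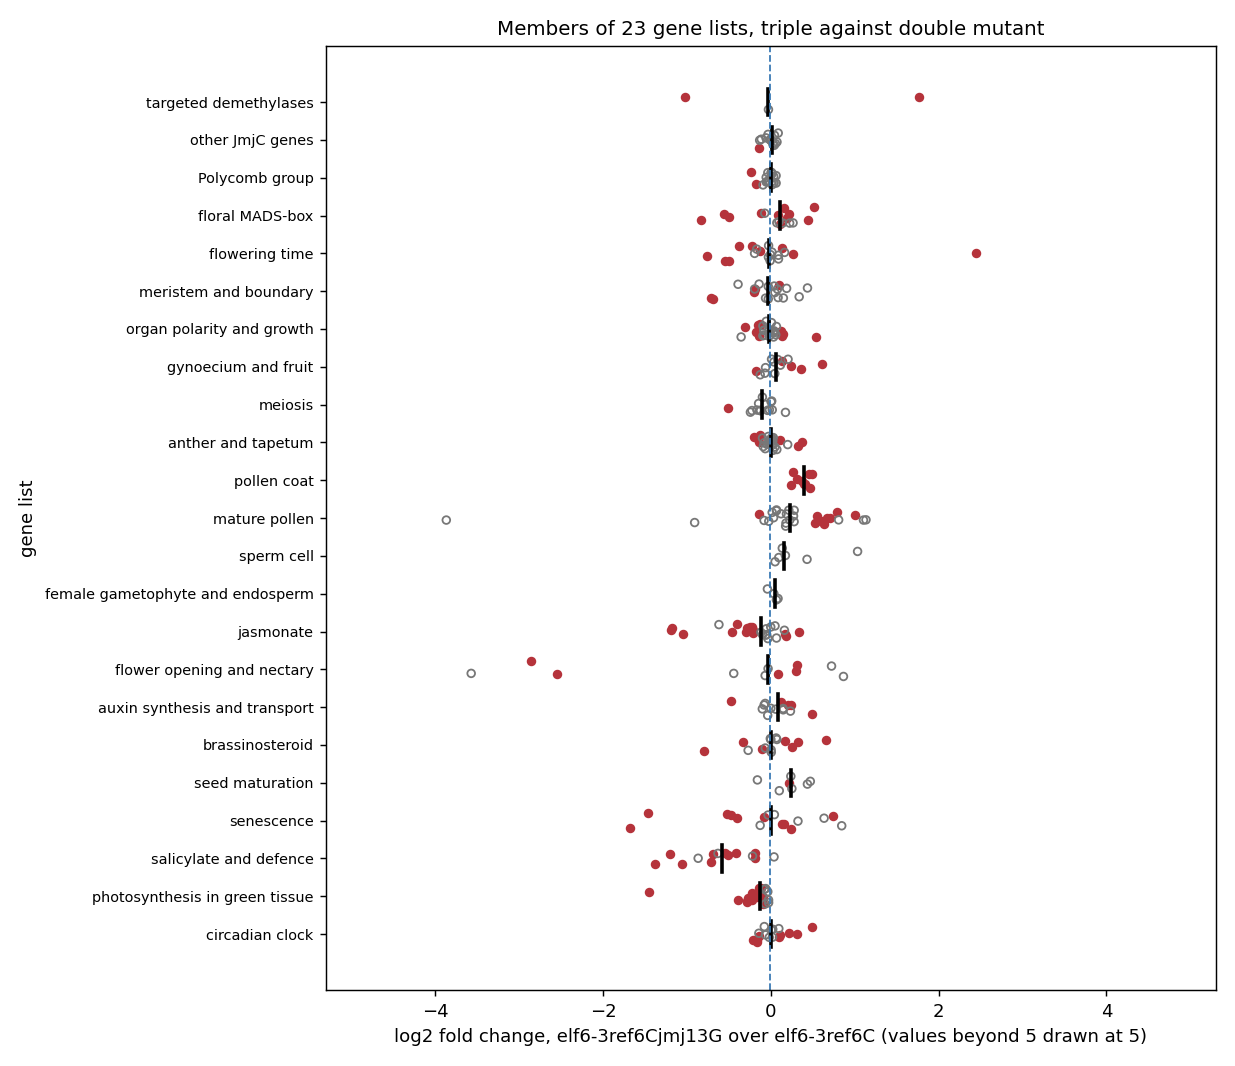
Fitted log2 fold change (x axis) of each tested member of 23 gene lists (y axis) in the triple mutant against the double mutant elf6-3ref6C, drawn as in the plot of the same lists against wild type. Pollen coat genes lay to the right (median 0.40) and salicylate and defence genes to the left (median -0.59).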

How the data were processed

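RNA from closed flower buds was sequenced after stranded total RNA library preparation, per the labels' protocols. The tools STAR, RSEM (version 1.2.22) and DESeq2, and the build TAIR10, are listed in the submitters' processing notes. The authors deposited raw counts per gene, FPKM values, and log2 fold changes with p-values of their own comparisons, per the file headers; no source used here states whether counting used strand.

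All 15 libraries were fitted together in edgeR 4.0.16 (limma 3.58.1, R 4.3.3) with TMM scaling, the default filter on low counts (22411 genes kept) and the quasi-likelihood test; p-values were adjusted by Benjamini-Hochberg over all tested genes, and a gene was called below 0.05. CPM was computed from the deposited counts, and FPKM is as deposited. Tests on simulated data for this comparison recovered 45 of 50 genes changed 2-fold among 22132. In that simulation few genes changed, as many up as down, and all genes shared 1 fixed spread. In the data 66.4% of genes were called, and falls outnumbered rises at 2-fold. The simulation therefore does not test the scaling or the error rate in data like these. Alternatives were DESeq2 1.42.0, other scalings and filters, only the 6 compared libraries, glmTreat, a replicate block and leaving out libraries. Among the 22411 genes tested here, the authors' deposited table called 12981 in the same direction as here and 0 in the opposite direction. Of these genes, 1906 were called here only and 12 by the authors only. At 2-fold that table had 385 of them higher and 1444 lower, against 673 and 2260 here. DESeq2 as run here gave 732 and 2272 among 24993 genes. The reason for the lower deposited counts was not tested.

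Named genes are the targeted genes, the 8 largest rises and falls against wild type and the 4 against the double mutant with mean log2 CPM of at least 1 and no overlap, the genes crossing from below 0.1 to at least 1 CPM, and members of the 23 lists. The members and lists were chosen with earlier results of these data known. Of 405 list entries, 400 were kept after matching names to the RefSeq annotation. The promoters were read from TAIR10.1 with Python 3.11. Intervals cover counting error only.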

Additional observations from a re-analysis of the deposited data

Results flagged for a closer look

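Among the named genes, those that differed at least 2-fold between the triple and the double mutant were searched for opposite shifts, a selection made after the data had been seen. For 3 of them, the double and the triple mutant lay on opposite sides of wild type without overlap, and edgeR called the difference between them. AT2G01422, a non-coding RNA gene, had means of 1.94 CPM in wild type, 24.8 CPM in the double mutant and 1.37 CPM in the triple mutant, a log2 difference of -4.17 between triple and double mutant; its difference from wild type was not called in edgeR without replicate 1 of the triple mutant (adjusted p = 0.063). AOC2, a jasmonate synthesis gene with near-identical copies among which reads could be split, had means of 11.4, 17.9 and 8.68 CPM in the same order, a log2 difference of -1.05. LHB1B1, a light-harvesting protein gene of a family with near-identical copies, had means of 28.8, 47.8 and 17.4 CPM, a log2 difference of -1.45.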

How the results depend on the processing

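Testing against a 2-fold change with glmTreat in place of a limit on the fitted fold lowered the counts to 371 higher and 1254 lower against wild type and to 9 and 22 against the double mutant. With limits of 0.2 and 2 CPM, 7 genes in place of 12 crossed from near silence to expression. The promoter motif share of lower genes was 12.2% at a 4-fold limit. Leaving out single libraries gave between 685 and 707 genes rising and between 2255 and 2325 falling 2-fold against wild type. Same-numbered libraries of the triple mutant and wild type did not deviate together (correlations between -0.05 and 0.002). Nor did those of the triple and double mutants (between -0.09 and -0.02). With so few libraries this cannot show what a replicate number shares, and the labels do not say. With a replicate block 676 genes rose and 2265 fell 2-fold against wild type. DAZ1 (adjusted p = 0.058), AGL80 (0.069) and AT2G01422 (0.063) lost their call in edgeR when 1 library was left out, namely replicate 1 of wild type for DAZ1 and AGL80 and of the triple mutant for AT2G01422. Small list counts moved too: gynoecium genes called lower went from 3 to 1 without replicate 3 of wild type or replicate 1 or 3 of the triple mutant, and auxin genes called lower from 4 to 2 without replicate 2 of wild type or replicate 1 of the triple mutant. Without single libraries, seed maturation genes called higher (1) ranged from 0 to 2, the female gametophyte gene called higher was lost without replicate 1 of wild type, and salicylate genes called lower went from 1 to 2 there. DESeq2 did not call DAZ1 (adjusted p = 0.051). With DESeq2 or no filter, gynoecium genes called lower numbered 1, and with the 1 CPM filter sperm cell genes called lower numbered 2. None of the fold changes recomputed changed sign, but the larger side of all calls did (7543 higher and 7513 lower without ref6C replicate 3, 7046 and 7025 with the 1 CPM filter). Families and genes looked up after values were seen were not recomputed. Genes near 0 CPM rest on few counts.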

Other observations

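Of 20 gene families looked up by their annotated description after values had been seen, those named here were picked for their shifts. Among all tested genes 32% were called higher and 34.4% lower, 3% rose 2-fold and 10.1% fell 2-fold. Of 66 tested plant invertase and pectin methylesterase inhibitor genes, 34 fell at least 2-fold and 1 rose, with a median log2 fold change of -1.07. Of 89 tested F-box genes with an associated interaction domain, 45 fell at least 2-fold and 1 rose (median -1.01). Of 55 TRAF-like genes, 17 fell and 2 rose 2-fold (median -0.47). Of the WRKY transcription factor genes, 29 of 39 were called higher, 10 of them at least 2-fold (median 0.34), and 20 of 35 heat shock genes were called higher (median 0.18). The NBS-LRR genes (29 higher and 26 lower of 102) and the Integrase-type DNA-binding genes (16 higher and 15 lower of 52) were balanced. Of the 20 families, 15 had more members called lower than higher, and 5 had more called higher than lower. Families not named above leaned lower too, such as the pectin lyase-like genes (14 higher and 40 lower of 69) and the GDSL-like lipase genes (9 higher and 37 lower of 59). Many members of these families are similar in sequence, and reads could be split between them.

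DNA damage response genes were also looked up after the rise of NAC044 and NAC085 had been seen. PARP2, a poly(ADP-ribose) polymerase gene, had means of 16.3 CPM in wild type, 18.8 CPM in ref6C, 37.6 CPM in the double mutant and 35.2 CPM in the triple mutant. BRCA1 had 17.5, 20.6, 28.2 and 26.3 CPM in the same order. XRCC4 had 18.4, 5.82, 2.16 and 1.81 CPM, and NAC044 had 0.987, 1.65, 21.2 and 17.8 CPM, in the same order. A link between these changes was not tested. ATR and SMR7 were not called against wild type in edgeR, with log2 fold changes of 0.03 and 0.50.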
